A study of Mus musculus with 12 samples.

Results

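The experiment asked what switching on a mutant form of the transcription factor LHX1 does to the transcriptome of mouse embryoid bodies, within the line that carries it. Its members were the 6 libraries of the mutant FLAG-*Lhx1* line, out of 12 in the series, chosen by line and treatment from the labels: 3 from embryoid bodies given doxycycline for 16 h and 3 from embryoid bodies given none. All 6 came from A2lox.cre embryonic stem cells grown for 2 days as embryoid bodies, aggregates in which stem cells start to differentiate. The other 6 libraries are the same comparison in a line carrying wild-type FLAG-*Lhx1*, and they were used for the shared estimate of the spread and to set the mutant response beside the wild-type one. The genotype of both mutant groups is the same FLAG-*Lhx1* mutant A2lox.cre line, so the only labelled difference between them is the antibiotic. Neither the change in the protein nor the number of clones behind the line is stated in the sources used here. No line without a transgene was given doxycycline among these samples, so effects of the drug and of induction cannot be told apart.

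LHX1 is a LIM homeodomain protein: its LIM domains bind the cofactor LDB1, which works together with SSBP proteins, and its homeodomain binds AT-rich DNA. It acts in the organizer tissues that pattern the embryonic head, and embryos without it lack anterior head structures. In A2lox.cre cells the transgene is placed by Cre recombination beside *Hprt* on the X chromosome, behind a promoter that responds to doxycycline. *Hprt* encodes the enzyme that salvages hypoxanthine and guanine for purine synthesis.

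The mutant libraries held 4468741 to 4850393 counts each, and the whole series 4289984 to 4850393. The filter on low counts left 12322 genes. Pluripotency and epiblast markers were abundant in every mutant library, with *Pou5f1* at 1292 to 1436 CPM (counts after scaling the libraries to 1 size) and *Fgf5* at 163.0 to 181 CPM, and the epithelial marker *Epcam* stood at 238 to 269 CPM. Transcripts of *Rn45s*, the ribosomal RNA precursor, took 0.0884% to 0.265% of the counts of the mutant libraries, against 1.45% in wild-type library 2 with doxycycline. *Bnip3*, a gene induced by low oxygen, lay between 83.4 and 148 CPM in the mutant libraries and at 229 CPM in wild-type library 3 without doxycycline. No mutant library stood apart to that extent in *Rn45s* or *Bnip3*. These wild-type libraries bear on the mutant results only through the shared spread and the wild-type values. *Adm*, of the hypoxia list, stood at 11.2 CPM in untreated mutant library 1, 1.65 CPM in treated mutant library 3 and 11.0 CPM in untreated wild-type library 3. Chi-square over its degrees of freedom was 2.02 and 1.91 for pairs with untreated mutant library 3 and 1.11 for the other untreated pair. The treated mutant pairs had 1.27 to 1.33. For pairs with untreated wild-type library 3 it was 2.37 and 2.41, and for pairs with treated wild-type library 2 it was 5.84 and 6.28. Nothing in the labels says that replicates came from different cultures. The p-values therefore measure the spread between these samples alone, which may be technical.

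Doxycycline switched on *Lhx1* in the mutant line. *Lhx1* (chromosome 11, 84518284 to 84525535, minus strand, mm10) stood at 0.429, 0.407 and 0.428 CPM in the 3 libraries without doxycycline, which is 2 counts in each. With doxycycline it stood at 249.9, 260.2 and 235 CPM. The groups were far apart: 6 counts over the untreated libraries faced 3499 over the treated ones, a depth-corrected ratio of 589 with a 95% exact counting interval of 270.4 to 1607, which covers counting error only. On the log2 scale the fitted rise was 9.11 (SE 0.52, n = 3 per group, adjusted p = 4.55e-48 by edgeR's quasi-likelihood test with Benjamini-Hochberg correction). The induced level of 248 ± 12.6 CPM (SD, n = 3) compared with 296 ± 9.37 CPM in the wild-type line under doxycycline. The untreated level of 0.421 ± 0.0124 CPM compared with 2.09 ± 1.13 CPM, and the log2 rise was larger in the mutant line by 1.97 (edgeR adjusted p = 0.0212). The counts do not separate transgene from endogenous *Lhx1* transcripts. The gene's own neighbourhood on chromosome 11 gave no call in the mutant line: 18 tested genes within 1 Mb had log2 fold changes from −0.21 (*Dhrs11*) to 0.16 (*Dusp14*). Among them *Car4* had −0.10 in the mutant line and was called higher in the wild-type line (0.40, edgeR adjusted p = 8.69e-04). Its difference of −0.50 was called (edgeR adjusted p = 0.0024).

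*Hprt* was the other gene that rose. It (chromosome X, 52988137 to 53021659, plus strand) stood at 6.87, 7.33 and 8.13 CPM without doxycycline and at 19.9, 18.6 and 21.8 CPM with it, so that the lowest treated library was above the highest untreated one. The means were 7.44 ± 0.636 and 20.1 ± 1.63 CPM (SD, n = 3), a 2.70-fold rise with a 95% interval of 2.15 to 3.39 (1.43 in log2, SE 0.16, adjusted p = 5.79e-09 in edgeR). In the wild-type line *Hprt* went from 10.5 ± 0.339 to 41.5 ± 3.70 CPM (1.99 in log2), and the difference between the lines, −0.55 in log2, was not called (edgeR adjusted p = 0.202). Among the other 19 tested genes of purine synthesis and salvage none was called, and their median log2 fold change was 0.011. *Aprt*, the salvage enzyme for adenine, stood at 91.4 and 90.1 CPM without and with doxycycline, and *Prps2*, which makes the ribose donor, at 158 and 148 CPM (log2 fold change −0.10).

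**Figure D1:**
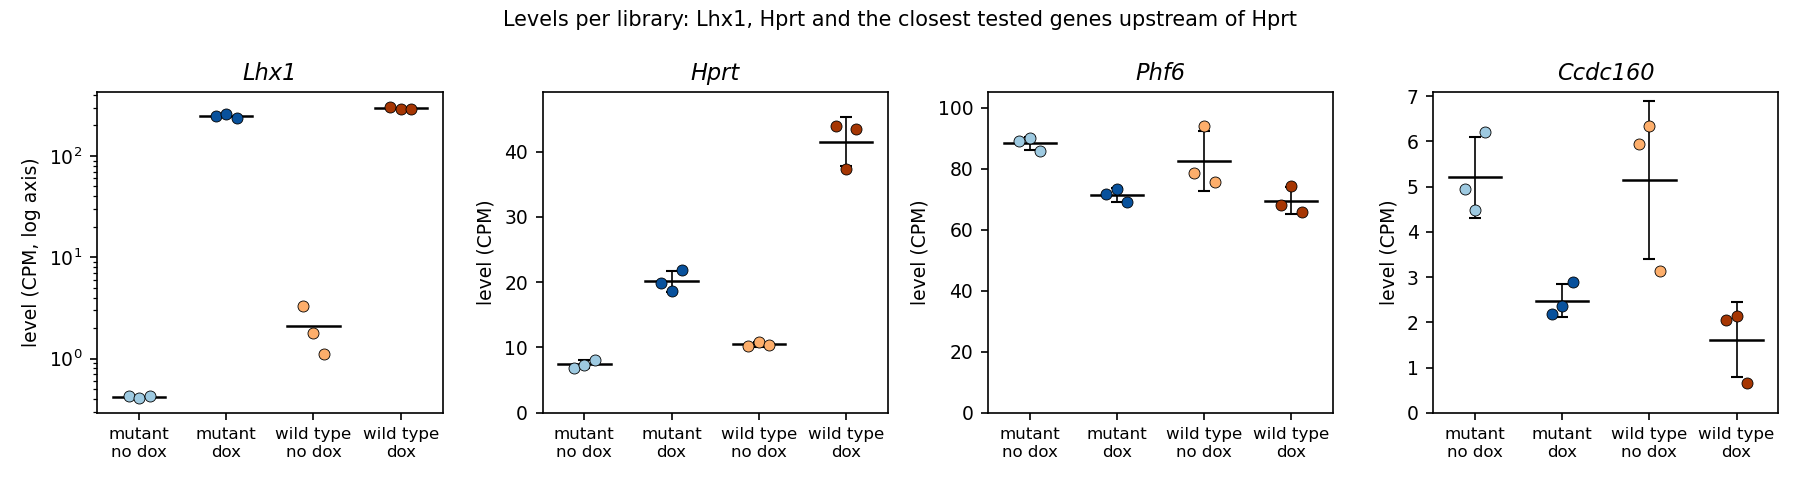
Level in CPM of *Lhx1* (log axis), *Hprt*, *Phf6* and *Ccdc160* (linear axes from 0) in each library of the 4 groups; points are libraries, horizontal bars group means and whiskers, left out for *Lhx1*, 1 SD (n = 3). In the mutant line *Lhx1* went from 0.421 to 248 CPM and *Hprt* from 7.44 to 20.1 CPM, while *Phf6* lay lower with doxycycline in all 3 mutant libraries.

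No other gene passed the threshold. Of 12322 genes tested, 2 were called in the mutant line, a share of 0.0162%, and none was lower. In the wild-type line 655 were called, a share of 5.32%, 340 higher and 315 lower. At an unadjusted p under 0.05 the mutant line had 578 genes, 283 above and 295 below 0 (4.69% of those tested), at an unadjusted p under 0.001 it had 19, and beyond *Lhx1* and *Hprt* the lowest edgeR adjusted p was 0.236. The wild-type line had 1966 genes at the first of these bounds and 513 at the second. Libraries of the mutant groups did not overlap for 1304 genes, 10.6% of those tested. The median log2 fold change over all genes was −0.0015 in the mutant and −0.0034 in the wild-type line.

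**Figure D2:**
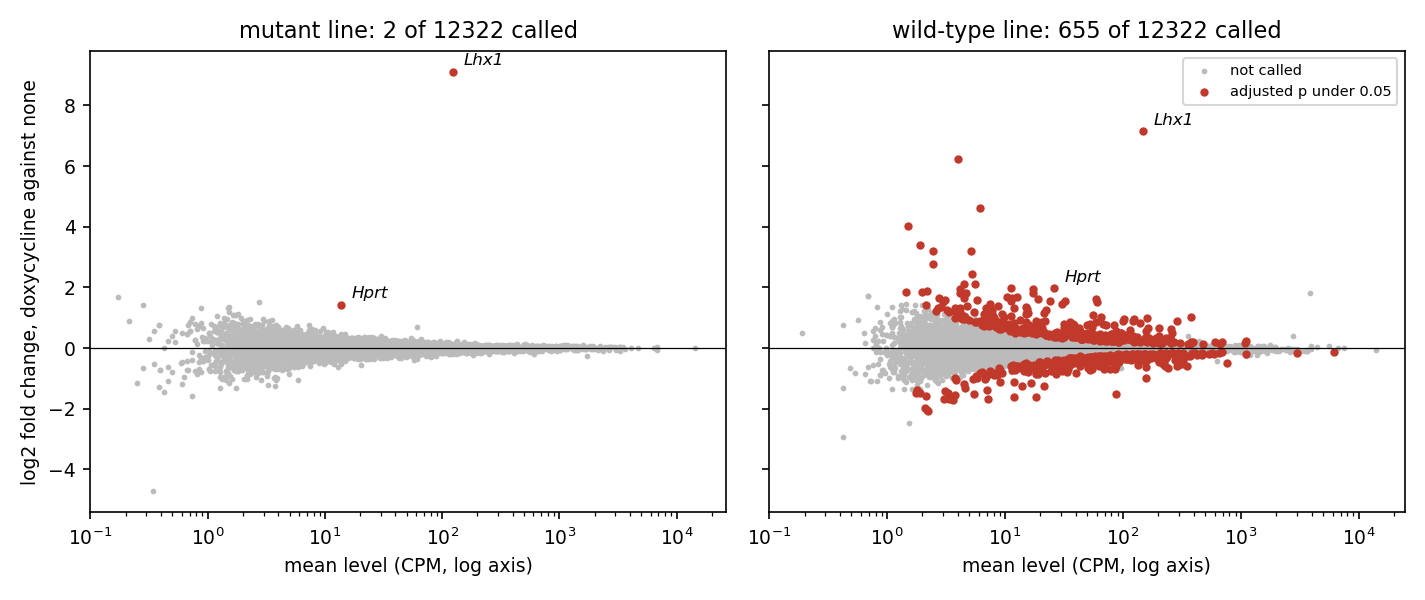
Log2 fold change with doxycycline (vertical axis) against mean level in CPM (log axis) for the 12322 genes tested in the mutant line, left, and the wild-type line, right; red points are genes with an adjusted p under 0.05. In the mutant line the 2 red points are *Lhx1* and *Hprt*, and in the wild-type line 655 genes are red.

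The precision of the mutant fold changes set what a missing call can mean. The 95% interval lay wholly within a 2-fold change in either direction for 11494 genes (93.28%) and within 1.5-fold for 9636 (78.2%). The median halfwidth of the interval was 0.11 in log2 for the 2209 genes at 100 CPM or more, 0.19 for the 5053 at 20 to 100 CPM and 0.35 for the 3207 at 5 to 20 CPM. It was 0.68 for the 1781 genes at 1 to 5 CPM and 1.46 for the 72 below 1 CPM. For transcripts below 1 CPM a 2-fold change was therefore not detectable at this depth. Of the genes at 100 CPM or more 99.82% had an interval within 2-fold.

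The genes that changed with wild-type FLAG-*Lhx1* centred near 0 in the mutant line. The 340 genes called higher there had a median log2 fold change of 0.54 in the wild-type line and −0.018 in the mutant line, with 144 above and 196 below 0. The 315 called lower had medians of −0.40 and −0.018, with 135 above and 180 below 0. Over all genes tested 6078 lay above and 6242 below 0 in the mutant line. Outside *Lhx1* and *Hprt* none of these genes was called in the mutant line. The difference between the responses was called for 161 of the genes higher in the wild-type line and for 118 of those lower, against 307 of all genes (2.49%). For 328 of the 340 and 295 of the 315 the wild-type log2 fold change lay outside the 95% interval of the mutant one, as it did for 3375 of all 12322. These genes were selected for a wild-type change, and this count does not include the error of the wild-type value. Over the 653 wild-type calls other than *Lhx1* and *Hprt*, the responses of the lines, which share no libraries, had Pearson r = 0.041 and Spearman rho = −0.0155 across genes, which are not independent replicates.

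**Figure D3:**
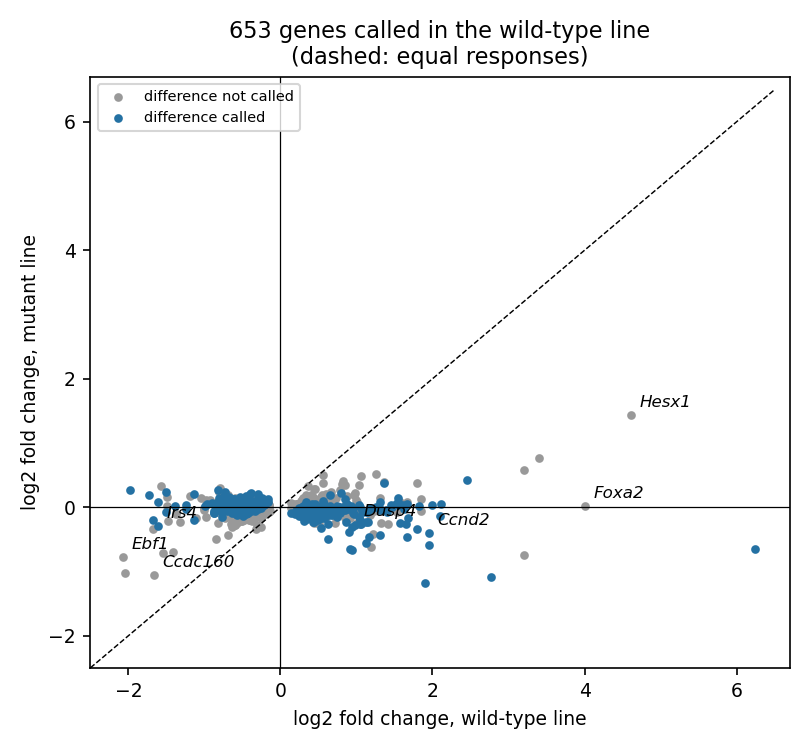
Log2 fold change in the mutant line (vertical) against that in the wild-type line (horizontal) for the 653 genes called in the wild-type line other than *Lhx1* and *Hprt*; blue points have a called difference between the lines and the dashed line marks equal responses. The points lie along the horizontal axis, with mutant medians of −0.018 for genes on either side.

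The largest rises of the wild-type line, given for 9 genes, were mostly of genes with few counts in the mutant line. *Hesx1*, a homeobox factor of the forebrain and pituitary primordia, held 2 counts without and 6 with doxycycline in the mutant line, against 6 and 157 in the wild-type line. Its mutant ratio of 3.03 had a 95% counting interval of 0.542 to 30.7, and its difference between the lines was not called (edgeR adjusted p = 0.406). *Foxa2*, a forkhead factor of node, notochord and endoderm, held 6 and 6 counts in the mutant and 2 and 38 in the wild-type line. *Cyp26a1*, which degrades retinoic acid, held 8 and 12 counts in the mutant line, a ratio of 1.52 (0.570 to 4.27), against 13 and 124. *Cdh20*, a cadherin, held 7 and 12 counts against 4 and 46. These genes had too few mutant counts for a narrow interval, and the difference between lines was not called for *Foxa2* (edgeR adjusted p = 0.069), *Cyp26a1* (0.0695) or *Cdh20* (0.234).

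*Lmo1*, a LIM-only protein that binds LDB1, belongs to the same group. It held 7 and 4 counts without and with doxycycline in the mutant line, a ratio of 0.577 (counting interval 0.124 to 2.27), and 6 and 59 counts in the wild-type line (difference −3.95 in log2, edgeR adjusted p = 0.0775). *Slc18a3*, the vesicular acetylcholine transporter, held 9 and 4 counts against 8 and 57, and its difference was called (−3.85, edgeR adjusted p = 0.0164). *Ephb1*, an ephrin receptor, had 5.97 ± 0.462 and 7.99 ± 1.63 CPM in the mutant line, a log2 fold change of 0.42 (interval −0.00645 to 0.85), against 2.45 in the wild-type line. *Cdh11*, a mesenchymal cadherin, had mutant values of 2.58 and 2.69 CPM and *Ptges*, a prostaglandin E synthase, 2.17 and 1.99 CPM. The differences of these 3 were called, at −2.02, −2.06 and −2.23 in log2. Over the 9 genes the mutant log2 fold changes ran from −1.08 to 1.43 with a median of 0.05. None had an unadjusted p under 0.05 in edgeR. The wild-type value lay outside the mutant edgeR interval for all 9. For *Hesx1* this rests on 2 and 6 mutant counts, with an edgeR interval of −1.04 to 3.90 against 4.62 in the wild-type line. Its exact counting interval, a ratio of 0.542 to 30.7, held the wild-type change. These genes were selected for a large wild-type change, and the count leaves out the error of the wild-type value.

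The 250 bases before the start sites of *Hprt* and *Lmo1* are printed as examples of promoters without and with the full sequence TAATTA. *Hprt* was the 1 endogenous gene other than *Lhx1* called in the mutant line, and *Lmo1* was called in the wild-type line. Both are from RefSeq, GRCm38.p6, 5′ to 3′ on the gene's strand (*Hprt* chrX:52987828-52988077, plus strand, *Lmo1* chr7:109175208-109175457, minus strand). Capitals mark TAATTA, a core that many homeodomain proteins bind, read on both strands at once since it is its own reverse complement.
Hprt: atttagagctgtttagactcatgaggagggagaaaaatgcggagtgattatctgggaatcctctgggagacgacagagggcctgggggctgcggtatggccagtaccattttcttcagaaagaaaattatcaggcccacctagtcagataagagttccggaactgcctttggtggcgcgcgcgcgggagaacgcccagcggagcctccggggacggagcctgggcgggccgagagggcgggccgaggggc
Lmo1: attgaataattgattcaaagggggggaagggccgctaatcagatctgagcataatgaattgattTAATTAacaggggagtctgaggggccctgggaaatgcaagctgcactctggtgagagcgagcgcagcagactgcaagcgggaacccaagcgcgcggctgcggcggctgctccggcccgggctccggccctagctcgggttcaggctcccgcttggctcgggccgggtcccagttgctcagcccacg
*Hprt* held no TAATTA in this window, and *Lmo1* held 1, centred 183 bases before the start. Of 9163 tested genes with a RefSeq promoter 191 held one (2.084%). The share was 6 of 245 (2.449%) for genes called higher in the wild-type line, 3 of 239 (1.255%) for those called lower, and 4 of 54 (7.407%) for those at least 2-fold higher. These matches are letters in a window, not sites shown to be bound.

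The 10 largest falls of the wild-type line were mostly of low or moderate transcripts. *Cxcl12*, a chemokine that guides migrating cells, stood at 47.5, 40.1 and 44.1 CPM without and 46.3, 47.2 and 45.1 CPM with doxycycline in the mutant line, so that the groups overlapped. Its log2 fold change was 0.08 (interval −0.15 to 0.30) against −1.61 in the wild-type line, a called difference of 1.69 (edgeR adjusted p = 8.32e-07). *Irs4*, an insulin receptor substrate on the X chromosome, stood at 38.2, 39.1 and 36.1 against 32.9, 29.7 and 29.7 CPM, with no overlap. Its log2 fold change of −0.30 was not called (edgeR adjusted p = 0.858) and differed from the −1.61 of the wild-type line by 1.31 (edgeR adjusted p = 6.04e-06). *Tmem145*, a transmembrane protein, and *Kirrel2*, a cell adhesion protein related to nephrin, had mutant values of 0.19 and −0.20, with called differences of 1.91 and 1.47. *Ebf1*, a transcription factor of early B cells and neurons, stood at 3.86, 4.07 and 3.42 against 2.63, 1.28 and 2.68 CPM (log2 fold change −0.78, edgeR unadjusted p = 0.0247), against −2.07 in the wild-type line. *Ndnf* (−1.02), *Ccdc160* (−1.06), *Ddx60* (−0.33) and *Wnt8a* (−0.71) also lay below 0, and *Il12rb1* (0.33) above, all uncalled and none with a called difference. Over the 10 genes 7 lay below and 3 above 0, and the median was −0.32. An edgeR unadjusted p under 0.05 was found for 3, against 4.69% of all genes. The mutant groups did not overlap for 4, against 10.6% of all genes. The wild-type value lay outside the mutant interval for 8, a count that leaves out the error of the wild-type value. *Ccdc160* also lies within 1 Mb of *Hprt* and is counted there as well.

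Some better measured genes also separated the responses. *Dusp4*, a phosphatase that restrains ERK, stood at 85.2, 88.9 and 79.6 CPM without and 72.3, 61.7 and 76.4 CPM with doxycycline in the mutant line, lower in all 3 treated libraries. Its value of −0.27 in log2 (SE 0.07, edgeR adjusted p = 0.397) faced 0.98 in the wild-type line, a difference of −1.25 (edgeR adjusted p = 7.58e-15). *Fgf5*, a growth factor of the primed epiblast, had 173 ± 7.54 and 169 ± 7.58 CPM in the mutant line and a difference of −0.91 (edgeR adjusted p = 2.77e-12). *Ccnd2*, a G1 cyclin, had 11.1 ± 1.74 and 8.44 ± 0.487 CPM and a difference of −2.35 (edgeR adjusted p = 5.97e-11). *Frem2*, a matrix protein of epithelia (−0.32), and *Serinc5*, a lipid scramblase (0.22), had signs opposite to their calls in the wild-type line, 0.53 and −0.38. Among the wild-type calls with the smallest mutant p in the same direction were *Prkaa1*, a catalytic subunit of AMP kinase (49.4 to 38.9 CPM, −0.34), *Armcx1* on the X chromosome (−0.28) and *Foxp1*, a forkhead repressor (−0.20), with −0.32, −0.31 and −0.47 in the wild-type line.

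Genes around *Hprt* lay below 0 with doxycycline. All 10 tested genes within 1 Mb of *Hprt* had negative log2 fold changes in the mutant line, with a median of −0.25, but none was called. The region was chosen for the called gene at its centre, with earlier results known. Libraries of the groups did not overlap for 5 of the 10, against 10.6% of all genes, and 6 had an unadjusted p under 0.05, against 4.69%. *Phf6*, a chromatin-associated zinc finger protein whose end lies 31.2 kb before the start of *Hprt*, stood at 89.1, 90.0 and 85.8 CPM without and 71.7, 73.3 and 69.0 CPM with doxycycline. Its log2 fold change was −0.31 (SE 0.07, interval −0.45 to −0.16, edgeR adjusted p = 0.236), and in the wild-type line −0.25 (edgeR adjusted p = 0.0302). *Ccdc160*, a coiled-coil protein 189 kb before *Hprt*, stood at 4.94, 4.48 and 6.20 against 2.19, 2.35 and 2.88 CPM, with −1.06 (SE 0.32, edgeR adjusted p = 0.613) and −1.67 in the wild-type line. The differences between lines for *Phf6*, −0.06, and *Ccdc160*, 0.61, were not called (edgeR adjusted p = 0.904 and 0.677).

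On the far side of *Hprt*, *Zfp36l3*, an RNA-binding zinc finger protein, stood at 8.37, 5.09 and 4.28 against 4.17, 2.78 and 3.91 CPM (−0.70, against −1.42 in the wild-type line). *Mospd1*, a membrane protein with a major sperm protein domain, had −0.41 and *Fam122b* −0.28, and the closely related *Cxx1a*, *Cxx1b* and *Cxx1c*, whose reads may be shared, had −0.05, −0.17 and −0.07. The glypicans, cell-surface heparan sulfate carriers, were the ones that parted the lines. *Gpc4*, 823 kb before *Hprt*, stood at 32.9, 37.9 and 42.8 against 35.5, 29.5 and 32.1 CPM (−0.23) while it was called higher in the wild-type line (1.16), a difference of −1.38 (edgeR adjusted p = 5.31e-08). *Gpc3*, at 374 kb, had −0.23 against 0.45, a difference of −0.68 (edgeR adjusted p = 1.96e-04). The lines already differed without doxycycline. *Gpc4* averaged 37.8 CPM in the untreated mutant line, against 13.2 CPM without and 29.3 CPM with doxycycline in the wild-type line. For *Gpc3* these means were 61.2, 33.4 and 45.5 CPM. Of the same 10 genes 4 were called lower and 2 higher in the wild-type line, where 5.32% of all genes were called.

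Beyond 1 Mb the medians were nearer to 0 than within it, without a steady order. The 4 tested genes at 1 to 2 Mb all lay below 0 with a median of −0.16, of the 24 at 2 to 5 Mb 14 did (median −0.025), of the 9 at 5 to 10 Mb 7 did (median −0.037), of the 41 at 10 to 20 Mb 27 did (median −0.05), and of the 359 beyond 20 Mb 196 did (median −0.012). Over all 447 tested X-linked genes other than *Hprt* 258 lay below 0 with a median of −0.025, against 6242 of 12320 genes in all. The bins within 2 Mb hold few genes, and neighbouring genes are not independent of one another.

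**Figure D4:**
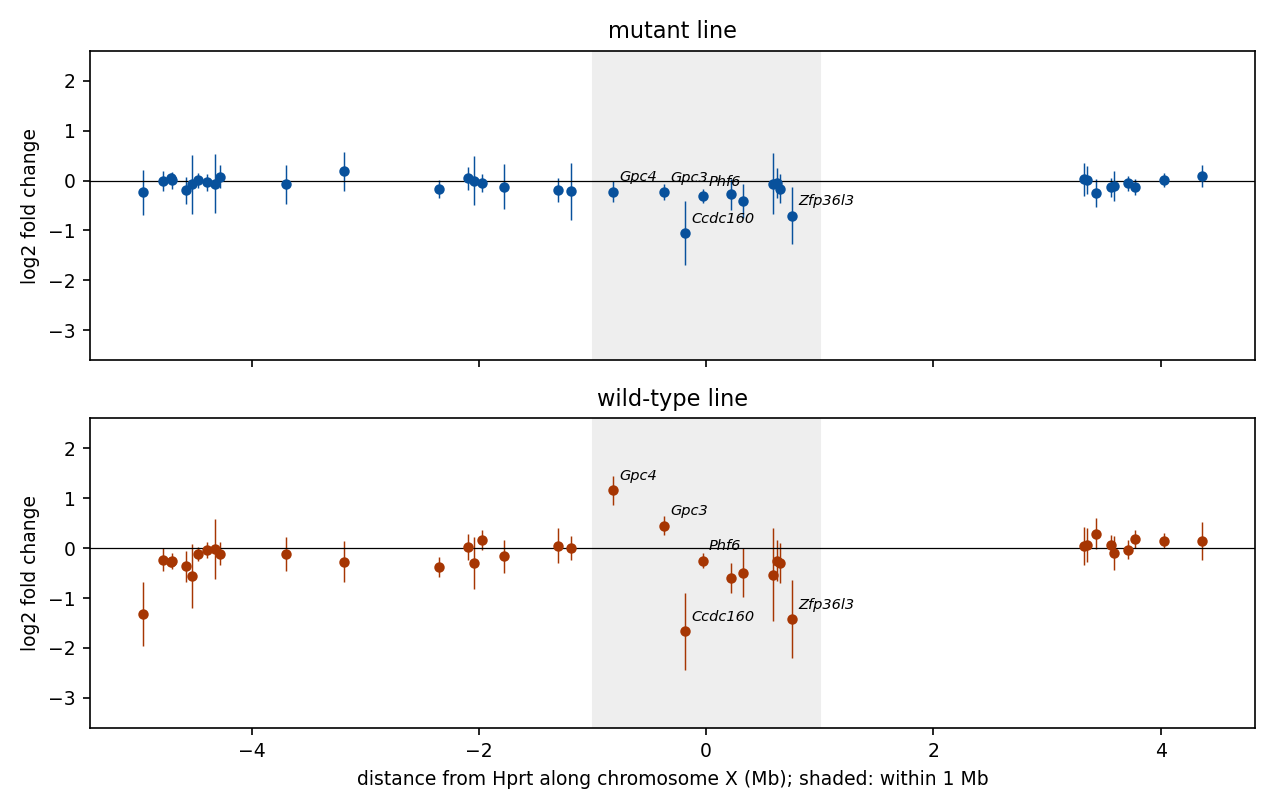
Log2 fold change with its 95% interval (vertical) of tested genes within 5 Mb of *Hprt*, by distance along chromosome X in Mb (horizontal), in the mutant line, above, and the wild-type line, below; *Hprt* itself is left out and the shaded band marks 1 Mb. In the mutant line all 10 genes in the band lie below 0, and in the wild-type line 8 of 10 do.

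Cofactors of LHX1 were expressed in the mutant line and none was called. Of 23 LIM-domain, LDB and SSBP genes and LHX1 partners 10 were tested, with a median log2 fold change of −0.055, and in the 13 left out by the filter the largest total was 21 counts over a group (*Lhx6*). *Ldb1*, the adaptor that joins LIM proteins, stood at 98.5, 89.0 and 97.7 CPM without and 97.3, 103 and 103 CPM with doxycycline (log2 fold change 0.09, interval −0.04 to 0.22). *Ssbp3*, its partner in the head organizer, had 213 and 215 CPM. *Ssbp2* stood at 14.8, 14.2 and 14.8 against 13.2, 12.4 and 8.65 CPM (−0.36, edgeR adjusted p = 0.999), and *Rlim*, an X-linked ubiquitin ligase that targets LDB1, at 175, 178 and 155 against 151, 149 and 158 CPM (−0.15). Both had unadjusted p under 0.05 (0.0255 and 0.0122 in edgeR), and *Otx2*, a head homeobox factor, had 174 and 164 CPM.

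No organizer, streak or neural gene other than *Lhx1* was called in the mutant line. Of 25 organizer and anterior mesendoderm genes 16 were tested, none was called, and 7 lay above and 9 below 0 (median −0.036), while 8 were called higher and 1 lower in the wild-type line and 6 differences were called (5.32% and 2.49% of all genes). *Lefty1* and *Lefty2*, secreted NODAL antagonists, had 56.2 and 57.5 CPM and 66.3 and 62.3 CPM. *Sfrp1*, a WNT antagonist, had 28.9 and 27.6 CPM, *Nodal* 31.6 and 30.1 CPM, and *Tdgf1*, its co-receptor, 269 and 267 CPM. *Gsc*, *Cer1* and *Dkk1*, classic organizer genes, held 8 and 4, 14 and 10, and 9 and 9 counts over the groups and were not tested. Of 22 streak and mesoderm genes 6 were tested, of which only *Lhx1* was called. The T-box factor *Eomes* had 18.4 and 18.9 CPM, *Wnt3*, a ligand of streak formation, 2.88 and 3.83 CPM, and *T*, brachyury, held 24 and 18 counts.

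Of 22 anterior neural genes 10 were tested and none was called, with 3 above and 7 below 0 (median −0.037). *Pax6*, a regulator of eye and forebrain, had 6.60 and 6.36 CPM, and the forebrain factor *Zic2* had 190 ± 10.4 and 200.3 ± 6.43 CPM. *Sox21*, a repressor in neural progenitors, held 16 counts without and 5 with doxycycline over the groups, a ratio of 0.316 (counting interval 0.0905 to 0.902, edgeR adjusted p = 0.999).

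No pluripotency gene was called in the mutant line. The 20 naive genes had 5 above and 15 below 0 (median −0.064) and 14 intervals within 1.5-fold, and the 21 tested formative and primed genes had 9 above and 12 below 0 (median −0.0094), all 21 with an interval within 1.5-fold. In the wild-type line 8 and 9 of these genes were called, against 5.32% of all genes. *Pou5f1* stood at 1304, 1292 and 1381 against 1340.0, 1436 and 1358 CPM, *Sox2* at 264 and 251 CPM, *Nanog* at 70.5 and 67.1 CPM and *Dnmt3b*, the de novo methyltransferase of the epiblast, at 2707 ± 24.7 and 2602 ± 11.6 CPM (log2 fold change −0.06, interval −0.14 to 0.02). The naive genes *Tet2*, *Tcl1* and *Esrrb* had unadjusted p from 0.0415 to 0.0487 in edgeR, with log2 fold changes of −0.43, −0.50 and −0.18. Of 26 tested feedback targets of the WNT, NODAL, BMP and ERK pathways none was called (9 above and 17 below 0, median −0.033). *Id3*, a BMP target, had 42.3 and 44.5 CPM, *Lef1*, a WNT effector, 48.5 and 48.8 CPM, *Dusp6*, an ERK phosphatase, 152 and 145 CPM, and *Axin2*, a WNT feedback inhibitor, 12.4 and 11.3 CPM.

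Doxycycline is known to hinder mitochondrial translation, so lists of mitochondrial and stress genes were described as well. None of 76 mitochondrial ribosomal protein genes was called, with 52 above and 24 below 0, a median of 0.058 (−0.044 in the wild-type line) and 7 at an unadjusted p under 0.05, all above 0, where 4.69% of all genes had such a p. None of 72 nuclear-encoded genes of oxidative phosphorylation was called, with 59 above and 13 below 0, a median of 0.054 (−0.080 in the wild-type line) and 9 at an unadjusted p under 0.05, all above 0, against the same 4.69%. For all 72 the interval lay within 1.5-fold. *Mrpl21*, of the large mitochondrial ribosomal subunit, stood at 37.6, 36.4 and 34.4 against 43.9, 43.4 and 43.3 CPM (0.27 in log2, SE 0.09, edgeR adjusted p = 0.913). *Atp5j2*, of ATP synthase, stood at 92.5, 104 and 102 against 106, 121 and 118 CPM (0.21, edgeR adjusted p = 0.931), and *Cox7a2*, of complex IV, at 55.6, 56.0 and 60.3 against 61.6, 73.5 and 63.7 CPM (0.21, edgeR adjusted p = 0.963).

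The mutant log2 fold changes also varied with transcript length. Over 5 equal groups of the tested genes by median transcript length, from the shortest (up to 754 bases) to the longest, the mutant median log2 fold change went through 0.012, 0.0093, 9.31e-04, −0.014 and −0.023. In the wild-type line the order was the other way, from −0.014 to 0.011. In the shortest group stood 49 of the 72 oxidative phosphorylation genes and 30 of the 76 ribosomal ones. It also held 16 of the 31 tested glycolysis and hypoxia genes, whose mutant median lay below 0, at −0.057. The part of length in the medians of these lists was not tested.

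The list for the stress-response factor ATF4 holds *Atf4* and target genes of the factor. Of its 28 tested members none was called, with 21 above and 7 below 0 and a median of 0.039. *Atf4* itself stood at 127, 122 and 118 CPM without and 139, 149 and 142 CPM with doxycycline, with each treated library above each untreated one (0.23 in log2, SE 0.06, edgeR adjusted p = 0.250). *Sesn2*, a stress-induced regulator of mTORC1, had 98.5 and 105 CPM and *Slc7a1*, a cationic amino acid transporter, 23.1 and 26.2 CPM. None of 16 genes of the mitochondrial unfolded protein response was called, with 8 above and 8 below 0 (median −0.0032), among them *Hspe1*, a mitochondrial chaperonin, at 356 and 340.0 CPM and the protease *Lonp1* at 179 and 169 CPM. None of 19 tested p53 targets was called (15 above and 4 below 0, median 0.041), nor of 31 genes of glycolysis and hypoxia (10 above and 21 below 0, median −0.057). The glycolysis and hypoxia list also moved within the groups, with *Bnip3* at 83.4 CPM in treated library 3 against 133 and 134 in the other two, and its part was not tested.

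**Figure D5:**
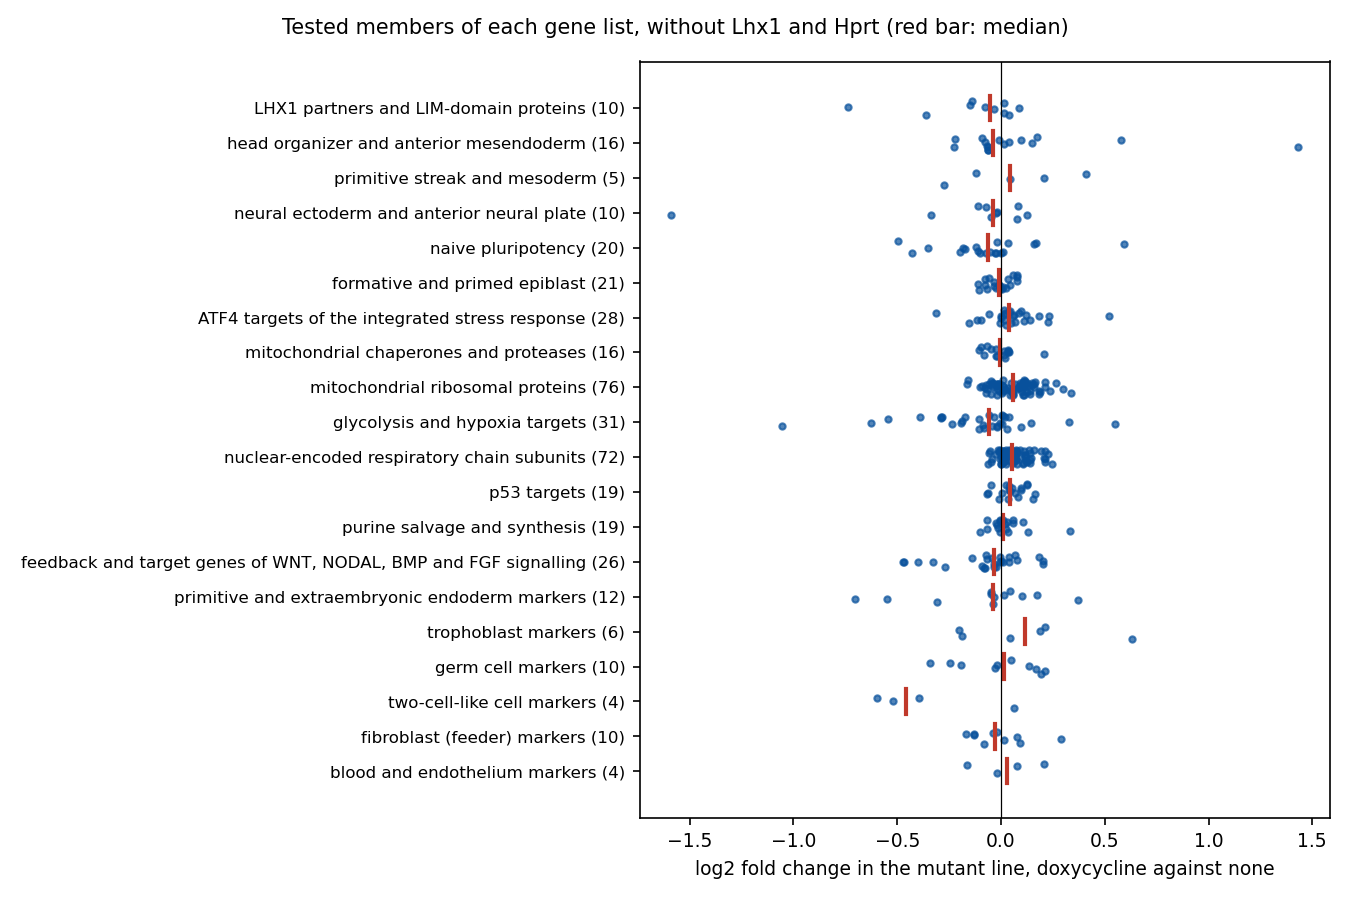
Log2 fold change with doxycycline in the mutant line (horizontal) of each tested member of the 20 gene lists, without *Lhx1* and *Hprt*; each point is a gene, red bars are list medians and the number of genes stands in brackets. No point is a called gene, and medians of lists with 10 or more genes lie between −0.064 and 0.058.

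Markers of other cell types gave no call either. Summed over 19 listed genes of extraembryonic endoderm the level was 489 to 524 CPM without and 506 to 531 CPM with doxycycline. Of the 12 tested genes 5 lay above and 7 below 0. *Gata4*, a defining endoderm factor, had 3.23 and 2.20 CPM and *Cubn*, an endocytic receptor, 4.64 and 2.83 CPM (edgeR unadjusted p = 0.0411). The 13 listed trophoblast genes, of which 6 were tested, summed to 164 to 172 and 184 to 191 CPM. Most of this came from the keratins *Krt8*, 78.8 and 91.1 CPM (log2 fold change 0.21, edgeR adjusted p = 0.883), and *Krt18*, 56.4 and 64.2 CPM. Other epithelial cells also express these keratins. Germ cell (10 tested genes), fibroblast (10) and blood and endothelial (4) markers had medians of 0.015, −0.029 and 0.030. Of the 4 tested genes of two-cell-like cells *Zscan4c* and *Zscan4f*, near-identical copies whose reads may be shared, had −0.52 and −0.60 (edgeR adjusted p = 0.999 for both). In whole embryoid bodies fewer cells of a type and less RNA per cell cannot be told apart.

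Among the genes nearest to the threshold were *Phf6*, described above, and the histone genes *Hist1h3b* (−1.27 in log2, edgeR adjusted p = 0.236) and *Hist1h3d* (−1.21), described below. The others named here were single genes from several processes, given as values. *Cdkn2a*, the locus of the cell cycle inhibitors INK4A and ARF, stood at 1.72, 0.407 and 2.14 against 4.17, 3.42 and 4.53 CPM (1.51 in log2, SE 0.39, edgeR adjusted p = 0.236). *Sbds*, a ribosome maturation factor, had 58.8 ± 5.49 and 72.5 ± 6.11 CPM (0.30) and *Cenpa*, the centromeric histone, 87.9 ± 6.42 and 103 ± 1.63 CPM (0.24). *Stau2*, an RNA-transport protein (0.65), *Galnt3*, a glycosyltransferase (0.39), *Minos1*, of the mitochondrial cristae complex (0.32), and *Mfsd3* (0.75) were also above 0. Below 0 were *Arid5b*, a chromatin cofactor, at 16.1, 16.3 and 16.2 against 10.5, 11.8 and 11.1 CPM (−0.54), *Zbtb26* (−0.56) and *Rfx7* (−0.28). Their edgeR adjusted p ran from 0.236 to 0.599.

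Fitting the 6 mutant libraries alone called 5 of 11921 genes (0.0419%), adding 3 lower ones. *Phf6* (−0.31, edgeR adjusted p = 0.0298), *Hsph1* (−0.21, edgeR adjusted p = 0.0288) and *Slc2a3* (−0.19, edgeR adjusted p = 0.0285) were those. *Hsph1*, a heat shock protein of the HSP110 family, stood at 270.1, 270.1 and 267 CPM without and 238, 228 and 233 CPM with doxycycline. *Slc2a3*, a glucose transporter induced by low oxygen, stood at 683, 614 and 630 against 555, 595 and 536 CPM. With all 12 libraries its interval was −0.79 to 0.41 (edgeR adjusted p = 0.999), and its SD in the wild-type line was 137 CPM without doxycycline, in the group that holds the library with high *Bnip3*. Over all 12 libraries none of these 3 was called. Without both wild-type libraries that stood apart, a fit added after the data were seen, *Hsph1* was called (edgeR adjusted p = 0.033).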

How the data were processed

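RNA was measured in 12 libraries of embryoid bodies. The authors deposited raw counts of reads per gene symbol in 1 table of 23086 symbols, of which 4753 had no count. Per the submitters' processing notes, Trimmomatic 0.33, TopHat2 2.1.1, limma and the mm10 genome were used. The sources used here do not give the counting tool, annotation or strand setting, and overlapping, antisense and near-identical genes may share counts. Spreadsheet software had turned 27 symbols into dates, which were fitted but are left unnamed.

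Counts were fitted with edgeR 4.0.16 (R 4.3.3; TMM scaling, filterByExpr with a minimum count of 10 and a total of 15, robust quasi-likelihood) over all 12 libraries with 1 mean per group. This left 12322 genes with 99.77% of the counts. A call is a p under 0.05 after Benjamini-Hochberg adjustment over all tested genes of 1 comparison: doxycycline against none in the mutant line, in the wild-type line, and the difference of these. SEs are quasi-likelihood Wald errors and intervals are 95%. Levels are CPM from TMM-scaled libraries, and log2 fold changes carry a prior count of 0.125. Where counts were few, ratios of summed counts have exact 95% intervals for counting error. The fit was also run on simulated data whose spread followed the mean level alone, and the outcome is not given here.

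Positions came from GENCODE M21 (GRCm38) for 12218 tested genes (99.16%), by symbol or RefSeq synonym, and promoters from RefSeq (GRCm38.p6). No pair of replicates agreed within sampling noise (chi-square over its degrees of freedom at least 1.11), and each was kept as 1 sample.

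Named genes were *Lhx1* and *Hprt*, every gene called in the mutant line, the 8 with the smallest p in each direction among those not called, up to 3 per list, the 10 largest rises and falls of the wild-type line, wild-type calls with the smallest mutant p, the genes within 1 Mb of *Hprt*, calls of the mutant libraries fitted alone, and differences called without a wild-type call. *Rn45s*, *Bnip3*, *Adm*, the histone genes other than *Hist1h3b*, *Hist1h3d*, *Hist1h3h* and *Hist1h3i*, and list members given only as levels fall outside that rule. They were chosen after their values were seen. Of the genes that met the rule, 2 are not reported here. The members and lists were chosen with earlier results of these data known. DESeq2 1.42.0, limma-voom (limma 3.58.1), other scaling, filters and samples in the fit, the replicate block and leaving out each library of the lines compared were the alternatives.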

Additional observations from a re-analysis of the deposited data

Results flagged for a closer look

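For 29 of the 110 named genes the difference between the mutant and the wild-type response was itself called (edgeR, interaction contrast, adjusted p under 0.05), against 2.49% of all genes. Some genes were named for a called difference or a large wild-type change, so this share follows from the naming rule. Values are mutant minus wild-type log2 fold changes, 12 above and 17 below 0.

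Developmental and signalling genes that rose in the wild-type line gave negative differences: *Dusp4* −1.25, *Fgf5* −0.91, *Ccnd2* −2.35, *Ephb1* −2.02, *Zic2* −0.26, *Tcl1* −1.12, *Slc18a3* −3.85, *Ptges* −2.23, *Cdh11* −2.06 and *Frem2* −0.85. The glypican genes within 1 Mb of *Hprt* did as well, *Gpc4* at −1.38 and *Gpc3* at −0.68. Genes that fell in the wild-type line gave positive ones: *Cxcl12* 1.69, *Irs4* 1.31, *Tmem145* 1.91, *Kirrel2* 1.47, *Serinc5* 0.60, *Gadd45a* 0.68 and *Pou5f1* 0.26. *Lhx1* itself had 1.97, from 6 untreated counts in the mutant and 27 in the wild-type line.

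The remaining 9 genes were called in neither line. They were the histone H3 genes *Hist1h3b* (−2.21), *Hist1h3d* (−2.36), *Hist1h3h* (−2.08) and *Hist1h3i* (−1.95), the heat shock gene *Hsph1* (−0.34), *Galnt3* (0.73), and the mitochondrial genes *Cox7a2* (0.42), *Atp5j2* (0.38) and *Mrps21* (0.56).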

How the results depend on the processing

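The mutant calls were 2, *Lhx1* and *Hprt*, with DESeq2, limma-voom, upper-quartile scaling, no filter, a stricter filter, and with each mutant library left out in turn. They were 5 with only the samples of the line compared. An alternative added after the data were seen, leaving out both wild-type libraries that stood apart, gave 3, with *Hsph1* added. *Lhx1* kept a log2 fold change of 8.88 to 9.21 and *Hprt* one of 1.37 to 1.5 over the alternatives. The wild-type calls were 655 and 380 in DESeq2, and the differences 307 and 150. The cause was not tested.

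The median mutant log2 fold change of genes called lower in the wild-type line (−0.018) was −0.032 in DESeq2, −0.027 with only the samples of the line compared and −0.025 without both wild-type libraries that stood apart, and −0.033 to −0.0086 with 1 library left out. That of genes called higher was −0.033 to −0.013 with 1 library left out, the lowest without mutant library 3 with doxycycline. The cause was not tested. All of these medians were below 0.

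Same-numbered mutant libraries did not deviate together (correlations 0.0161, 0.0119 and −0.0405), so the numbers were not taken as pairs. With the replicate block the calls were 2 in the mutant line, 618 in the wild-type line and 286 for the difference, and no call named in the mutant line changed. The depth limits genes below 1 CPM, where no mutant interval lay within 2-fold.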

Other observations

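The replication-dependent histone H3 genes of the *Hist1* cluster, chosen after their values were seen, lay lower with doxycycline in the mutant line and higher in the wild-type line. All 8 tested *Hist1h3* genes had mutant log2 fold changes from −0.94 to −1.27 and wild-type ones from 0.59 to 1.26, none was called in either line by edgeR, and the difference was called for 6 of the 8, against 2.49% of all genes. *Hist1h3b* stood at 4.29, 6.11 and 5.56 CPM without and 2.41, 1.92 and 2.27 CPM with doxycycline in the mutant line. Of the 29 tested histone genes of the cluster 9 lay below 0 in the mutant line, and the median was 0.12. These genes are near-identical copies whose reads may be shared, so the 8 values are not independent. The part of shared reads in the pattern was not tested.

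Over all genes tested, 28 had a called difference between the lines without a call in either line. In a principal component analysis of the 6 mutant libraries the first component (24.3% of the variance) separated the groups, at −13.4, −11.6 and −4.57 against 10.7, 10.4 and 8.36. Without *Lhx1* and *Hprt* it held 22.1% and the groups overlapped, at −13.8, −12.1 and 5.69 against 11.0, 7.28 and 1.89.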
